A study of Mus musculus with 6 samples.

Results

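The costimulatory genes followed here in single T cells from mouse melanomas were Tnfrsf4, Tnfrsf9 and Tnfrsf18 of the tumor necrosis factor (TNF) receptor family, Icos, and Cd40lg. They were chosen by name, as the rows of the count table that carry these symbols, and all 5 were found among the 14597 genes of the table. Their transcripts were read as unique molecular identifiers (UMIs, each standing for 1 captured mRNA molecule) in 12818 cells. The comparisons below ask how the 5 genes were distributed over CD4+ conventional T (Tconv) cells, CD8+ T cells and Foxp3+ cells, and which of them were found in the same cells.

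Costimulatory receptors add a further signal to that of the T cell receptor (TCR). OX40 (Tnfrsf4), 4-1BB (Tnfrsf9) and GITR (Tnfrsf18) appear or increase on T cells after activation, recruit TRAF adaptors and activate NF-kB, and all of them are also known on Treg cells. ICOS belongs to the CD28 family and signals through phosphoinositide 3-kinase, and CD40 ligand (Cd40lg) is a TNF family ligand through which activated helper T cells stimulate CD40 on B cells, dendritic cells and macrophages.

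The study sorted TCRβ+ T cells from subcutaneous B16-F10 tumors, which grow from a mouse melanoma line, and profiled them by droplet sequencing with 5′ chemistry. All animals carried the Foxp3-EGFP-DTR allele, in which the Foxp3 gene drives EGFP and the receptor for diphtheria toxin (DTx), and the toxin therefore removes Foxp3-expressing cells throughout the animal and not in the tumor alone. The labels name 3 samples of animals given PBS and 3 of animals given DTx, all of this genotype, and give no age. The cells carried a library number from 1 to 6 and no label ties a number to a treatment, so no library was assigned to PBS or DTx, the libraries were not treated as replicates of a group, and no effect of DTx was measured.

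The table held 21816565 UMIs. Median depth ran from 610 UMIs per cell in library 3 to 2499.5 in library 4. At least 1 UMI of 5 T cell markers (Cd3e, Cd3d, Cd3g, Trac, Trbc2) was found in 95.01% of cells, from 85.5% in library 3 to 99.3% in library 5. Gates were set by transcripts. CD4+ Tconv cells (1205) had Cd4 but neither Foxp3 nor a Cd8 gene (Cd8a, Cd8b1), CD8+ T cells (4497) a Cd8 gene but neither Cd4 nor Foxp3, and Foxp3+ cells (97) had Foxp3 but no Cd8 gene. Foxp3+ cells came from library 1 (49 cells), library 2 (30), library 3 (17) and library 6 (1). A further 6838 cells had no gating UMI and 18 had Foxp3 with a Cd8 gene, and 163 cells with UMIs of both Cd4 and a Cd8 gene, whose median depth of 4223 UMIs compares with 1622 in CD4+ Tconv and 1708 in CD8+ T cells, were kept out of the gates. No doublet caller was run. The same barcode occurred in more than 1 library for 76 barcodes (152 cells). UMIs of 3 B cell genes (Cd79a, Cd79b, Igkc) lay in 6.20% of CD8+ T and 1.49% of CD4+ Tconv cells, and no UMI of Ms4a1 was counted. UMIs of 4 myeloid genes (Cd68, Itgam, Csf1r, Itgax) lay in 11.1% and 0.996%, and no UMI of Lyz2, Cd14 or Flt3 was counted. Libraries 1 to 3 carried more transcripts of 5 naive T cell genes (Ccr7, Lef1, Tcf7, S1pr1, Klf2) in CD4+ Tconv cells, at 12.3, 39.6 and 13.7 per 10,000, than libraries 4 to 6, at 4.89 to 6.11.

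Of the 5 genes, 3 share a chromosome. In the GENCODE M21 annotation of GRCm38, Tnfrsf4 (ENSMUSG00000029075.6, chr4:156013843-156016612) lies 9551 bases upstream of Tnfrsf18 (ENSMUSG00000041954.18, chr4:156026164-156028895), and Tnfrsf9 (ENSMUSG00000028965.13, chr4:150914562-150946102) lies elsewhere on chromosome 4. Icos (ENSMUSG00000026009.14) is at chr1:60977927-61000320, downstream of Ctla4, and Cd40lg (ENSMUSG00000031132.1) at chrX:57212143-57224042. All are protein-coding genes on the plus strand. RefSeq promoter windows (GRCm38.p6) were matched for 3 of the 5 genes. The stretches before the starts of the neighbours Tnfrsf4 and Tnfrsf18 are shown because the levels of these genes are compared below, with no annotated UTR included and with a match to the NFAT motif TTTTCC in capitals.
Tnfrsf4, chr4:156013611-156013694, plus strand: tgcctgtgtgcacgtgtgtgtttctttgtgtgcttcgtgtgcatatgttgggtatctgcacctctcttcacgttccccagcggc
Tnfrsf18, chr4:156026072-156026163, plus strand: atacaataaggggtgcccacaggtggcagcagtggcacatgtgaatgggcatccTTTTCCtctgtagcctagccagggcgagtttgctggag
The second Tnfrsf9 window holds a match to NF-kB, the factor downstream of these receptors, and a match to AP-1 (TGANTCA). Unlike the stretches above, both lie outside the longest part of the window before its start with no annotated UTR (chr4:150927749-150927917). They are shown with their motif in capitals.
Tnfrsf9 NF-kB match, chr4:150927951-150927971, plus strand: cagctGGGGATTTCCCaggag
Tnfrsf9 AP-1 match, chr4:150927979-150927995, plus strand: tcagtTGAGTCAcaggt
On both strands of all 32851 windows of the same length, 4.51% held the NF-kB motif, 7.81% AP-1, 23.4% NFAT TTTTCC, 5.27% Runx TGTGGTT and 3.65% forkhead GTAAACA. The Tnfrsf4 window had no match to any of these letters, and a further NFAT match lay in the first Tnfrsf9 window at positions -138 to -133 from its start. A match describes letters only and is not a binding site.

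OX40 transcripts separated CD4+ from CD8+ cells. Levels are given as UMIs per 10,000 UMIs of the same cells, with 95% intervals that cover counting error only. In CD4+ Tconv cells Tnfrsf4 stood at 7.02, 1.80, 5.13, 7.76, 9.51 and 8.78 per 10,000 in libraries 1 to 6. CD8+ T cells ran from 0.160 in library 2, with a median of 0.926, to 1.93 in library 6. Each library was higher in CD4+ Tconv than in CD8+ T cells, and library 2 was lowest in both. Foxp3+ cells had 7.29, 12.1 and 9.21 per 10,000 in libraries 1, 2 and 3. Over the pool the levels were 8.85 (7.58 to 10.3) in Foxp3+, 7.81 (7.48 to 8.16) in CD4+ Tconv and 1.004 (0.943 to 1.07) in CD8+ T cells, and the intervals of the first and second overlapped. Pooled levels here and below are not matched by library. Nearly all Foxp3+ cells came from libraries 1 to 3, whereas libraries 4 and 5 held the most CD4+ Tconv cells (305 and 293). Within libraries 1, 2 and 3 the Tnfrsf4 level was higher in Foxp3+ than in CD4+ Tconv cells, by little in library 1. With cells also matched by depth, as below, Foxp3+ cells of library 1 had 0.915 times the UMIs expected from CD4+ Tconv cells (0.686 to 1.21).

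4-1BB transcripts did not separate CD4+ from CD8+ cells in each library. Tnfrsf9 stood at 2.37, 0.112, 0.981, 1.55, 1.92 and 1.46 per 10,000 in CD4+ Tconv cells of libraries 1 to 6. The CD8+ T levels were 0.651, 0.0839, 1.29, 0.746, 2.11 and 1.39. Libraries 3 and 5 were higher in CD8+ T cells, and the others in CD4+ Tconv cells. Foxp3+ cells had 3.18, 3.58 and 4.75 in libraries 1, 2 and 3, each above both other gates of its library. The pool gave 3.53 (2.75 to 4.47) in Foxp3+, 1.60 (1.45 to 1.76) in CD4+ Tconv and 1.14 (1.08 to 1.21) in CD8+ T cells.

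GITR transcripts were found at 2.92, 0.842, 2.57, 4.12, 5.02 and 4.29 per 10,000 in CD4+ Tconv cells of libraries 1 to 6. CD8+ T cells had 0.519 in library 2, a median of 1.40 and 2.37 in library 5. CD4+ Tconv cells were the higher in every library. Foxp3+ cells had 4.77, 4.34 and 6.54 in libraries 1, 2 and 3. Over the pool, which is not matched by library, the intervals of Foxp3+ (4.91, 3.98 to 5.995) and CD4+ Tconv cells (4.01, 3.77 to 4.26) overlapped. CD8+ T cells were below both (1.60, 1.52 to 1.68). Within each of libraries 1, 2 and 3 the level was higher in Foxp3+ than in CD4+ Tconv cells.

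Icos reached 6.30, 1.97, 4.30, 7.60, 6.91 and 5.16 per 10,000 in CD4+ Tconv cells of libraries 1 to 6. CD8+ T cells ran from 1.26 in library 2, with a median of 2.74, to 4.46 in library 4. Both gates were lowest in library 2 and highest in library 4. Foxp3+ cells had 10.5, 6.79 and 4.16 in libraries 1, 2 and 3, and library 3 was the only one in which they lay below CD4+ Tconv cells. Pooled levels were 8.34 (7.10 to 9.72) in Foxp3+, 6.44 (6.13 to 6.75) in CD4+ Tconv and 3.41 (3.29 to 3.53) in CD8+ T cells.

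The ligand Cd40lg was the exception among Foxp3+ cells. It stood at 3.42, 2.81, 4.23, 4.89, 3.78 and 4.79 per 10,000 in CD4+ Tconv cells of libraries 1 to 6. Foxp3+ cells had 1.495, 1.32 and 2.67 in libraries 1, 2 and 3, below CD4+ Tconv cells in each. CD8+ T cells ran from 0.168 in library 2, with a median of 0.495, to 0.928 in library 3. The pool gave 4.23 (3.98 to 4.49) in CD4+ Tconv, 1.64 (1.12 to 2.31) in Foxp3+ and 0.548 (0.503 to 0.596) in CD8+ T cells, with no overlap of the intervals.

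**Figure D1:**
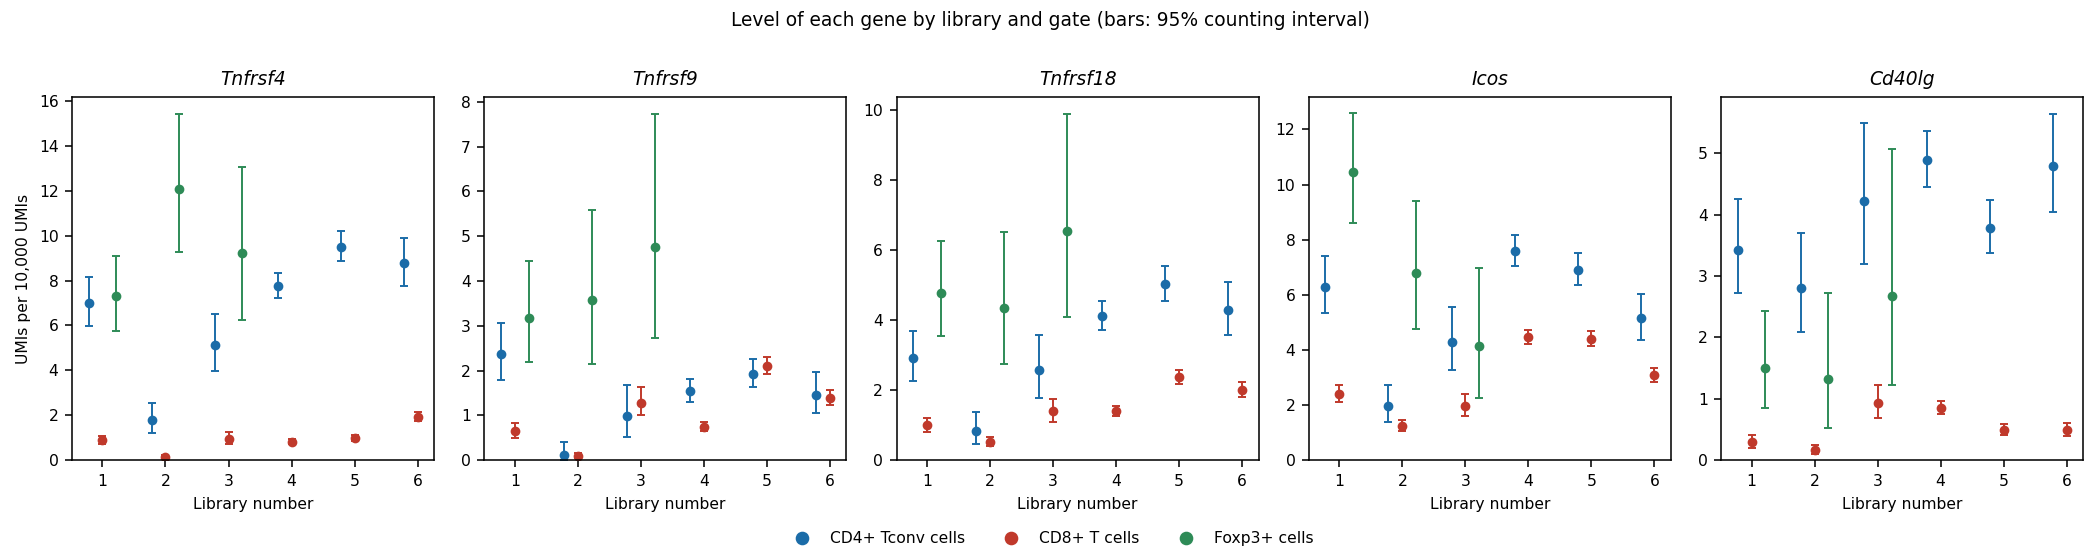
Level of each gene (UMIs per 10,000 UMIs, linear axes from 0) in each library, in CD4+ Tconv cells (blue), CD8+ T cells (red) and, in libraries 1 to 3, Foxp3+ cells (green), with bars for the 95% counting interval. The blue points of Tnfrsf4, Tnfrsf18, Icos and Cd40lg lie above the red ones in every library, those of Tnfrsf9 do not in libraries 3 and 5, and library 2 is lowest in blue and red for all 5 genes.

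Across libraries the 5 genes did not vary alike. From the lowest to the highest library, the level in CD4+ Tconv cells spanned 21.1-fold for Tnfrsf9, 5.97-fold for Tnfrsf18, 5.30-fold for Tnfrsf4, 3.87-fold for Icos and 1.74-fold for Cd40lg. In CD8+ T cells the span was 25.2-fold for Tnfrsf9, 12.0-fold for Tnfrsf4, 5.53-fold for Cd40lg, 4.57-fold for Tnfrsf18 and 3.54-fold for Icos. Library 2 set the lower end in all of these, with 2 Tnfrsf9 UMIs in its CD4+ Tconv cells (0.112 per 10,000, 0.0136 to 0.406). Without library 2 the spans in CD4+ Tconv cells were 2.41-fold for Tnfrsf9, 1.96-fold for Tnfrsf18, 1.85-fold for Tnfrsf4, 1.77-fold for Icos and 1.43-fold for Cd40lg, and those in CD8+ T cells 3.24-fold for Tnfrsf9, 3.17-fold for Cd40lg, 2.37-fold for Tnfrsf18, 2.33-fold for Tnfrsf4 and 2.27-fold for Icos. Its summed level of the 5 naive T cell genes was 39.6 per 10,000 in CD4+ Tconv and 38.4 in CD8+ T cells, against 4.89 to 13.7 and 4.79 to 17.6 in the other libraries. The part of naive cells in these spans was not tested.

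Shares of cells with a UMI were compared after every cell had been thinned to 1000 UMIs, which kept 910 CD4+ Tconv, 3735 CD8+ T and 76 Foxp3+ cells. Thinning evens out depth only, and the gates still differed in their mix of libraries. Tnfrsf4 was then detected in 36.7% of CD4+ Tconv, 4.87% of CD8+ T and 48.7% of Foxp3+ cells, and without thinning in 45.4%, 9.30% and 66.0%. Cd40lg was detected in 30.1%, 3.91% and 17.1% after thinning (44.9%, 6.78% and 23.7% without). The order of the gates was the same at both depths for these genes.

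Tnfrsf9 was detected in 9.23% of thinned CD4+ Tconv, 6.77% of CD8+ T and 21.1% of Foxp3+ cells, Tnfrsf18 in 25.6%, 13.0% and 35.5%, and Icos in 44.4%, 23.9% and 43.4%. Unthinned shares were 15.2%, 12.4% and 35.1% for Tnfrsf9, 36.8%, 22.9% and 52.6% for Tnfrsf18, and 53.4%, 36.5% and 59.8% for Icos. For comparison, the 640 cells without a UMI of any T cell marker (median depth 598 UMIs) had Tnfrsf4 in 9.06%, Tnfrsf9 in 1.25%, Tnfrsf18 in 7.50%, Icos in 11.9% and Cd40lg in 12.2% of cells. Only 85 of them reached 1000 UMIs, with 14.1%, 1.18%, 16.5%, 21.2% and 21.2% after thinning. They came from a TCRβ+ sort and are not a cell type known to lack these genes. The thinned shares of Tnfrsf4, Tnfrsf18 and Cd40lg in CD8+ T cells and of Cd40lg in Foxp3+ cells lay below those in these cells. Since the cells without a marker may express the genes, the comparison cannot decide whether these low shares stand for expression. The thinned share of Icos in CD8+ T cells (23.9%) lay close to that in the cells without a marker (21.2%).

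UMIs of a gene were also summed over the cells with the most of them, picked by raw count and without matching by depth. No such share was computed for other genes, so whether the shares below are unusual for genes of like abundance is not known. The 128 cells (1% of all) with the most UMIs of a gene held 34.7% of its UMIs for Tnfrsf9, 23.4% for Tnfrsf4, 17.4% for Cd40lg, 16.9% for Tnfrsf18 and 12.0% for Icos. The highest count in a cell was 49 UMIs for Tnfrsf4, 29 for Tnfrsf9, 21 for Icos, 18 for Tnfrsf18 and 15 for Cd40lg. CD8+ T cells held 45.9% of all Tnfrsf9 UMIs and 11.1% of those of Cd40lg, beside 45.3% of the UMIs of all genes.

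To compare gates at like depth, each ratio sets the UMIs of a gene found in one gate against those that the other gate would give in the same library and quartile of depth. CD4+ Tconv cells had 8.28 times the Tnfrsf4 UMIs expected from CD8+ T cells (7.64 to 8.98), 6.98 times those of Cd40lg (6.26 to 7.78), 2.39 times those of Tnfrsf18 (2.20 to 2.59), 1.70 times those of Icos (1.60 to 1.80) and 1.35 times those of Tnfrsf9 (1.20 to 1.51). All 5 intervals lay above 1, as did those of 14.2% of the 10383 genes with at least 20 UMIs over both gates, while 8.28% lay below. A ratio of at least 2 was reached by Tnfrsf4, Cd40lg and Tnfrsf18, and by 4.45% of genes, and a ratio of at most 0.5 by none of the 5 and by 3.96% of genes. Ranked by ratio, Tnfrsf4 was number 29 of the 10383, Cd40lg 42, Tnfrsf18 293, Icos 732 and Tnfrsf9 1644. The median log2 ratio was 1.26 over the 5 genes and 0.04 over all genes compared.

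These ratios were not equal between libraries. For Tnfrsf4 they were 6.99, 19.6, 5.37, 9.49, 9.70 and 5.18 in libraries 1 to 6, and for Cd40lg 10.9, 14.4, 5.04, 5.72, 7.52 and 10.5. For Tnfrsf18 they ran from 1.85 in library 2 to 2.91 in library 4, and for Icos from 1.46 in library 2 to 2.64 in library 1. All 4 genes were higher in CD4+ Tconv cells in 6 of 6 libraries. Tnfrsf9 was higher in 4 of 6 (3.23, 2.35, 0.825, 2.09, 0.925 and 1.16), and its pooled ratio was 1.13 (0.979 to 1.29) without library 4 and 1.84 (1.58 to 2.14) without library 5. Where gates were set by UMI presence alone, so that a cell could belong to more than 1 gate, the Tnfrsf4 ratio was 5.43 (5.06 to 5.83).

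**Figure D2:**
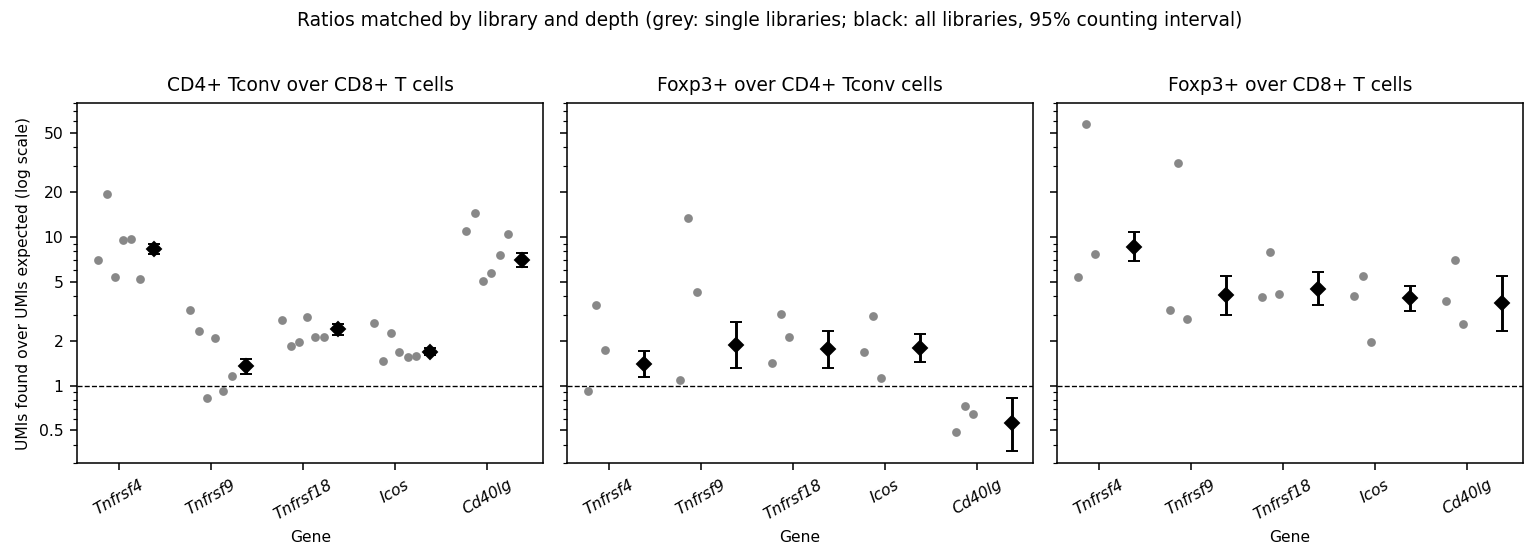
Ratio of UMIs found to UMIs expected (log axis) for each gene in 3 comparisons of gates, with grey points for single libraries in order of number, black diamonds for all libraries together and bars for the 95% counting interval. Tnfrsf4 and Cd40lg stand highest for CD4+ Tconv over CD8+ T cells (8.28 and 6.98), and Cd40lg alone lies below 1 for Foxp3+ over CD4+ Tconv cells (0.557).

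Foxp3+ cells exceeded CD4+ Tconv cells in the receptors and not in the ligand. With matching by library and depth, Tnfrsf9 was 1.88 times the expected number (1.32 to 2.69), Icos 1.78 times (1.43 to 2.21), Tnfrsf18 1.76 times (1.31 to 2.34) and Tnfrsf4 1.40 times (1.14 to 1.72), whereas Cd40lg was at 0.557 (0.366 to 0.825). Of the 4690 genes compared, 5.50% had an interval above 1 and 3.80% below 1, 5.54% a ratio of at least 2 and 7.63% a ratio of at most 0.5. The median log2 ratio was 0.81 over the 5 genes and 0.03 over all genes. These values rest on 97 cells.

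Library 1, with 49 of the Foxp3+ cells, differed from library 2. The Tnfrsf4 ratio was 0.915, 3.502 and 1.72 in libraries 1, 2 and 3, and that of Tnfrsf9 1.09, 13.5 and 4.25. In library 2 the CD4+ Tconv cells used as reference held 2 Tnfrsf9 UMIs. Those of library 1 had 7.02 per 10,000 of 5 Treg genes (Foxp3, Ikzf2, Il2ra, Ctla4, Lrrc32), against 2.86 to 4.78 in the other libraries. No cell of this gate had a Foxp3 UMI, and the part of Treg cells without such a UMI was not tested. Without library 1 the ratios were 2.50 (1.84 to 3.42) for Tnfrsf4 and 6.35 (3.32 to 12.8) for Tnfrsf9, and without library 2 they were 1.04 (0.814 to 1.32) and 1.42 (0.959 to 2.09). Tnfrsf18 (1.42, 3.04 and 2.11) and Icos (1.69, 2.96 and 1.13) were above 1 in 3 of 3 libraries. In library 3 the Icos ratio had an interval of 0.568 to 2.11, and the level without matching lay below that of CD4+ Tconv cells (4.16 against 4.30). Cd40lg was below 1 in 3 of 3 (0.485, 0.731 and 0.644), with 0.655 (0.354 to 1.14) without library 1. The 20 cells with at least 2 Foxp3 UMIs were set against CD4+ Tconv cells with at least 2 Cd4 UMIs. The ratios were 11.8 (5.80 to 26.1) for Tnfrsf18, 6.24 (2.59 to 16.5) for Tnfrsf9 and 2.26 (1.30 to 4.03) for Tnfrsf4. Icos was at 1.69 (0.872 to 3.52) and Cd40lg at 0.589 (0.175 to 1.58). Without matching, the levels of these gates lay closer, at 8.24 against 4.70 per 10,000 for Tnfrsf18. They were 4.36 against 2.07 for Tnfrsf9 and 9.69 against 8.89 for Tnfrsf4.

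Against CD8+ T cells, Foxp3+ cells were higher for all 5 genes in 3 of 3 libraries. The ratios were 8.57 for Tnfrsf4 (6.85 to 10.7), 4.49 for Tnfrsf18 (3.48 to 5.77), 4.06 for Tnfrsf9 (2.99 to 5.46), 3.86 for Icos (3.19 to 4.65) and 3.61 for Cd40lg (2.32 to 5.50). In this comparison 9.73% of 8257 genes had an interval above 1 and 3.19% below, and 12.0% a ratio of at least 2 and 12.9% of at most 0.5. The median log2 ratio was 2.02 over the 5 genes and 0.12 over all genes. The Tnfrsf4 ratio was 57.6 in library 2, whose CD8+ T cells held 21 Tnfrsf4 UMIs. It was 16.9 without library 1, 5.72 without library 2, and 13.7 without cells that had a B cell, myeloid, melanoma or stromal UMI.

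The genes next to Tnfrsf4 were examined because read counting can divide transcripts of close neighbours. Sdf4, which encodes a calcium-binding protein of the Golgi, ends 232 bases before Tnfrsf4 on the same strand and had 5364 UMIs. It was 2.51 times as high in CD4+ Tconv as in CD8+ T cells (2.32 to 2.71, 6 of 6 libraries), and its CD4+ Tconv levels were 2.87, 1.63, 3.17, 4.69, 5.46 and 3.86 per 10,000 in libraries 1 to 6. Like Tnfrsf4, it was lowest in library 2 and highest in library 5 of this gate. In CD8+ T cells both were lowest in library 2, but Sdf4 was highest in library 5 (1.95) and Tnfrsf4 in library 6 (1.93). In Foxp3+ cells library 2 had the highest Tnfrsf4 level (12.1) and the lowest Sdf4 level (3.58). CD8+ T cells with a Tnfrsf4 UMI had 1.77 times the Sdf4 UMIs of those without (1.56 to 2.001). Whether Sdf4 and Tnfrsf4 shared reads was not tested. Ube2j2, farther upstream, was at 0.986 (0.854 to 1.13). Between Ube2j2 and Sdf4, C1qtnf12 was at 5.33 (3.33 to 8.69, 4 of 6 libraries) and B3galt6 at 1.87 (1.10 to 3.12, 5 of 6 libraries). They had 170 and 140 UMIs in all cells. The antisense gene Gm16008 that overlaps Tnfrsf18 had 74 UMIs in all cells, and Tnfrsf18 had 5082. Camta1 overlaps Tnfrsf9 on the other strand and had 732 UMIs, with a ratio of 1.25 (0.981 to 1.59), and strand use in counting is not given in the sources used here.

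Of the binding partners of these proteins, Tnfsf4 and Cd40 were scarce in CD4+ Tconv cells. Of Tnfsf4, Tnfsf9, Icosl and Cd40, which bind OX40, 4-1BB, ICOS and CD40L, Tnfsf9 and Icosl passed the minimum of 20 UMIs for CD4+ Tconv over CD8+ T cells, with ratios of 1.37 (1.08 to 1.73) and 2.51 (1.54 to 4.09). CD4+ Tconv cells held 4 Tnfsf4 and 2 Cd40 UMIs, beside 108 of Tnfsf9 and 33 of Icosl. Of the 5 partners listed, 4 were in the table, and Tnfsf18, the ligand of GITR, was not. In Foxp3+ cells 3 Tnfsf9 UMIs were found where 11.4 were expected from CD4+ Tconv cells, a ratio of 0.263 (0.0498 to 0.893).

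Other receptors of the TNF receptor family lay on both sides of 1. Of 13 compared between CD4+ Tconv and CD8+ T cells, 2 had an interval above 1, Tnfrsf25 (death receptor 3, ratio 3.89) and Tnfrsf10b (a TRAIL receptor, 2.07), and 2 below, Cd27 (0.491) and Tnfrsf13c, with 0 UMIs where 6.45 were expected (interval up to 0.627). These are 15.4% above and 15.4% below, beside 14.2% and 8.28% of all genes compared. Their median log2 ratio was -0.33, against 1.26 for the 5 genes. Among 9 TNF family ligands, 4 were above 1 with Cd40lg left out of the list: Tnfsf11 (RANKL) at 8.21, Tnfsf8 (CD30 ligand) at 6.48, Cd70 at 4.17 and Lta at 2.90. Fasl, the ligand of cytotoxic killing through Fas, was below 1 at 0.733. The list thus had 44.4% above and 11.1% below, beside 14.2% and 8.28% of all genes. In Foxp3+ over CD4+ Tconv cells, Tnfsf11 (0.503, 0.242 to 0.969) and Cd70 (0 UMIs against 8.69 expected, interval up to 0.486) lay below 1 like Cd40lg, and Ltb above (1.69, 1.38 to 2.08).

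The CD28 family was compared with Icos, its member here. Btla (1.9995), Ctla4 (1.32) and Cd28 (1.14) had intervals above 1 for CD4+ Tconv over CD8+ T cells, beside 1.70 for Icos, and Pdcd1 was below (0.831, 0.738 to 0.934). For Foxp3+ over CD4+ Tconv cells, 1 of these 4 was above 1, Ctla4 at 1.84 (1.43 to 2.36), beside 1.78 for Icos. Among 8 genes of ICOS signalling, the transcription factors Maf (5.79) and Bcl6 (1.86) and the kinase gene Pik3ca (1.47) were above 1 in CD4+ Tconv over CD8+ T cells, and Pik3cd (0.797) and Pik3r1 (0.838) below. Their median log2 ratio was 0.07. For CD4+ Tconv over CD8+ T cells, 75% of the CD28 family lay above 1 and 25% below, and 37.5% and 25% of the ICOS signalling genes. All genes compared had 14.2% above and 8.28% below. For Foxp3+ over CD4+ Tconv cells the CD28 family had 25% above and 0% below, beside 5.50% and 3.80% of all genes.

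Of 23 genes of the TRAF and NF-kB pathway, through which OX40, 4-1BB and GITR signal, 13 had an interval above 1 in CD4+ Tconv over CD8+ T cells and 0 below, with a median log2 ratio of 0.38 beside 0.04 for all genes. That is 56.5% above, beside 14.2% of all genes compared, with 8.28% of all genes below. None reached a ratio of 2. The subunit gene Nfkb1 was at 1.87 (1.67 to 2.10), the inhibitor of apoptosis Birc3 at 1.63, the inhibitor gene Nfkbid at 1.62 and the adaptor Traf1, which binds these receptors, at 1.46 (1.33 to 1.61). For Foxp3+ over CD4+ Tconv cells 20 were compared, and Traf1 (1.63), Nfkbia (1.53) and Tnfaip3 (1.26) were above 1 and Nfkbid (0.496) below, with a median log2 ratio of 0.40, beside 5.50% of all genes above and 3.80% below. In the survival list 3 of 5 genes were above 1 in CD4+ Tconv over CD8+ T cells and 1 below (Bcl2, 0.778). Among 7 genes of mRNA decay, several of whose products limit Icos and Tnfrsf4 transcripts, 3 were above 1, Zc3h12a (Regnase-1) at 1.52, Zfp36l1 at 1.44 and Zfp36 at 1.24, and Zfp36l2 below (0.871). For both of these lists the shares over all genes are the 14.2% and 8.28% given above. Both Roquin genes, Rc3h1 (0.848, 0.650 to 1.09) and Rc3h2 (1.07, 0.804 to 1.42), had intervals that included 1.

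Within each gate, cells with a UMI of a gene that marks a state were set against cells without it, again matched by library and depth. For these comparisons of states no share over all genes was computed, so how many other genes would lie above or below 1 is not known. Il2ra, the IL-2 receptor alpha chain of activated T cells, was found in 194 CD4+ Tconv cells. These had 2.47 times the expected Tnfrsf9 UMIs (1.97 to 3.11), 1.53 times those of Tnfrsf4 (1.38 to 1.69) and 1.33 times those of Tnfrsf18 (1.15 to 1.53), each higher in 4 of 4 libraries. The intervals of Icos (0.893, 0.790 to 1.01) and Cd40lg (0.971, 0.831 to 1.13) included 1. In the 432 CD8+ T cells with Il2ra all 5 genes were above 1 in 4 of 4 libraries, at 2.56 for Tnfrsf9, 2.15 for Tnfrsf4, 1.59 for Tnfrsf18, 1.42 for Icos and 1.37 for Cd40lg, the last with an interval that included 1 without library 4 (1.30, 0.964 to 1.74). The median depth of cells with Il2ra was 3050.5 UMIs against 1466 in CD4+ Tconv and 3463.5 against 1612 in CD8+ T cells, and the depth left within a quartile was not tested.

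Cells with a UMI of Nr4a1, Nr4a3 or Egr2, which are induced by recent TCR signals, showed another order. Among 556 such CD4+ Tconv cells Tnfrsf4 was 1.53 times (1.38 to 1.69) and Cd40lg 1.46 times (1.28 to 1.67) the expected number, followed by Tnfrsf9 at 1.25 (1.01 to 1.55), Tnfrsf18 at 1.23 and Icos at 1.17 (1.05 to 1.30). The interval of Tnfrsf9 also included 1 without library 2, 3 or 5, and that of Tnfrsf18 without library 5 (1.17, 0.986 to 1.40). Without library 4 Tnfrsf9 was at 0.998 (0.770 to 1.30) and Icos at 1.11 (0.9697 to 1.28). In CD8+ T cells with these transcripts (1662 cells) Cd40lg was at 2.09 (1.70 to 2.59), Tnfrsf4 at 1.82, Tnfrsf9 at 1.75, Icos at 1.31 and Tnfrsf18 at 1.27. Cd40lg was thus above 1 with recent TCR signal genes in both gates and with Il2ra in CD8+ T cells only, and the difference between gates was not tested.

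Th2 cytokine transcripts (Il4, Il5 or Il13) were found in 142 CD4+ Tconv cells, of which libraries 4, 5 and 6 held 73, 45 and 20. In these cells Tnfrsf18 was at 1.87 (1.61 to 2.18), Tnfrsf9 at 1.86 (1.45 to 2.38) and Tnfrsf4 at 1.77 (1.59 to 1.98), each higher in 3 of 3 libraries with a value. Cd40lg was at 1.08 (0.914 to 1.28). Icos was at 0.761 (0.662 to 0.873), and at 1.07 (0.874 to 1.30) without library 4. The type 1 cytokine gene Ifng marked 349 CD4+ Tconv cells with lower values: 0.568 for Tnfrsf9 (0.453 to 0.710, lower in 5 of 5 libraries), 0.746 for Tnfrsf4 (0.678 to 0.821) and 0.813 for Tnfrsf18 (0.711 to 0.927), while Icos (1.02) and Cd40lg (0.897) had intervals that included 1. Without library 4 Tnfrsf18 was at 0.923 (0.780 to 1.09).

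Pdcd1, which encodes PD-1, was found in 206 CD4+ Tconv cells of the comparison. Tnfrsf9 was at 1.88 (1.52 to 2.31), Tnfrsf18 at 1.46 and Tnfrsf4 at 1.35 in these cells, each in 3 of 4 libraries, and Icos (0.908) and Cd40lg (1.03) had intervals that included 1. Among CD8+ T cells with Pdcd1 the values were 1.64 for Tnfrsf4, 1.40 for Tnfrsf9, 1.24 for Tnfrsf18 and 1.10 for Icos. Icos was at 1.04 (0.938 to 1.14) there without library 4.

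Matched by library and depth, cells with Mki67 or Top2a, which mark division, did not have more receptor transcripts in the CD4+ gate. The ratio was 0.638 for Tnfrsf9 (0.488 to 0.830), 0.766 for Tnfrsf18, 0.805 for Tnfrsf4 and 0.813 for Icos in CD4+ Tconv cells. For Tnfrsf4 and Icos 1 of 3 libraries was above 1 (1.40 and 1.06), and for Tnfrsf9 and Tnfrsf18 0 of 3. Unmatched levels were higher in dividing cells for Tnfrsf4 (8.55 against 7.57 per 10,000) and Tnfrsf18 (4.14 against 3.96). They were lower for Tnfrsf9 (1.41 against 1.66) and Icos (5.56 against 6.72). Among dividing CD8+ T cells Tnfrsf9 was above 1 at 1.19 (1.04 to 1.37, 5 of 5 libraries) and Tnfrsf4 below at 0.807 (0.691 to 0.942). The interval of Tnfrsf4 in these cells included 1 without library 4 (0.924) or library 5 (0.874), and that of Icos in dividing CD4+ Tconv cells without library 5 (0.894). Without matching by depth, Tnfrsf4 was at 1.01 in CD4+ Tconv and 1.09 in CD8+ T cells. With dividing cells left out of both gates, the CD4+ Tconv over CD8+ T ratio of Tnfrsf9 was 1.77 (1.55 to 2.03) in place of 1.35.

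**Figure D3:**
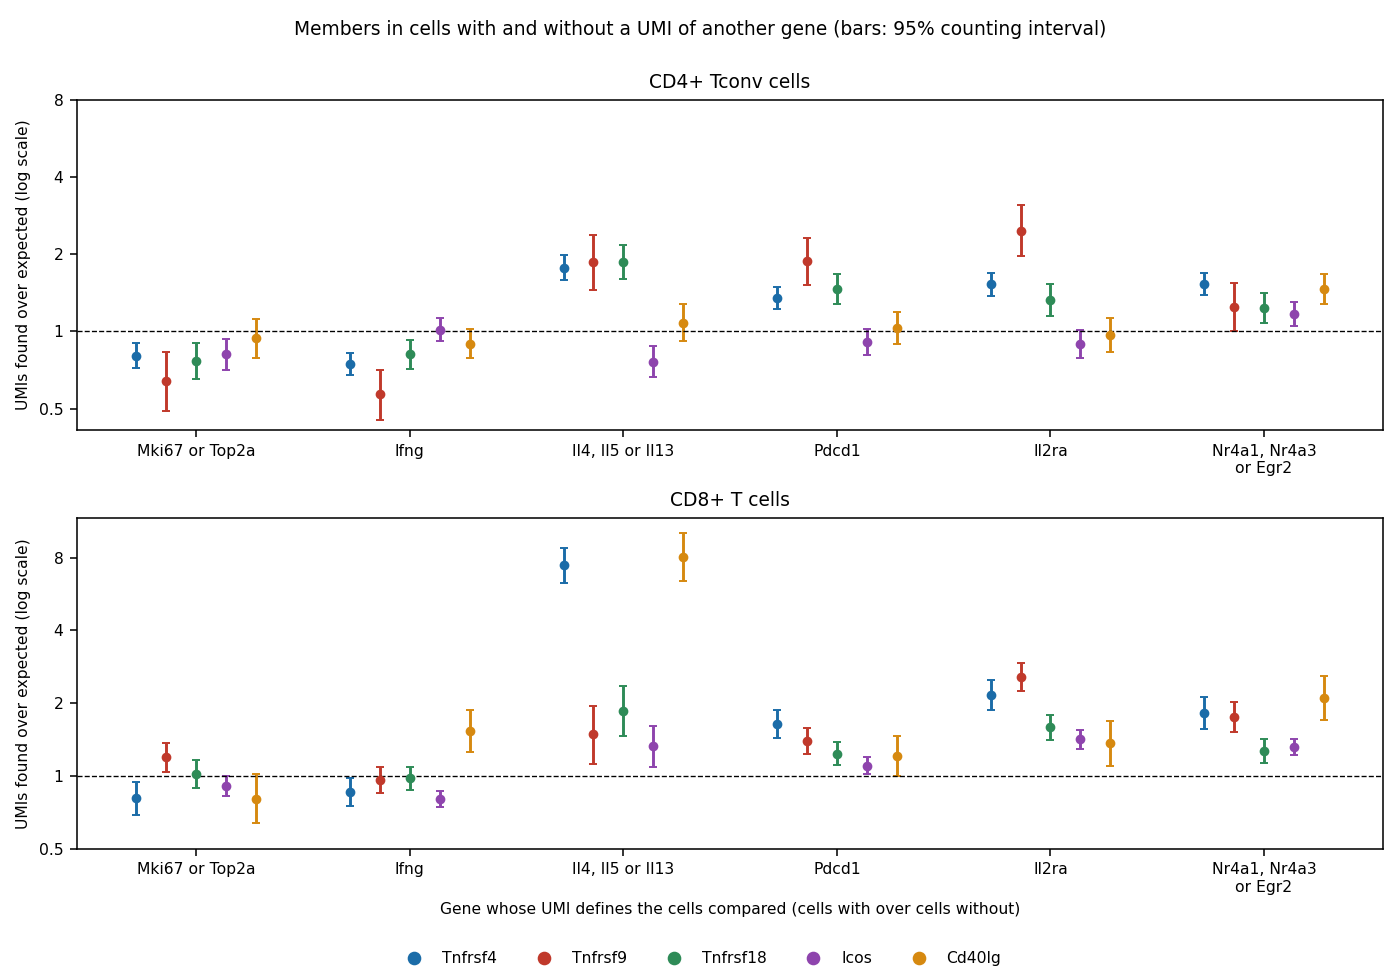
Ratio of UMIs found to UMIs expected (log axis) for the 5 genes in cells with over cells without a UMI of the genes named below each group, in CD4+ Tconv cells (top) and CD8+ T cells (bottom), with bars for the 95% counting interval. Tnfrsf9 is the highest point over Il2ra in both gates (2.47 and 2.56), and Tnfrsf4 and Cd40lg reach 7.44 and 8.07 in CD8+ T cells with Il4, Il5 or Il13.

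The largest of these ratios came from a small population of CD8+ T cells. Th2 cytokine transcripts lay in 54 of the 4497 cells, and these had 8.07 times the expected Cd40lg UMIs (6.38 to 10.2) and 7.44 times those of Tnfrsf4 (6.29 to 8.76), both in 3 of 3 libraries. Tnfrsf18 was at 1.86 (1.46 to 2.35), Tnfrsf9 at 1.48 (1.12 to 1.94) and Icos at 1.33 (1.09 to 1.61). The Tnfrsf9 ratio was 0.987 to 1.23 in the 3 libraries with a value, below the pooled 1.48. Its interval included 1 without library 1 (1.25), which held 1 of these cells, or without library 3 (1.33), and that of Icos without library 5 (1.21). As levels, Tnfrsf4 stood at 8.50 per 10,000 against 0.823 in the other CD8+ T cells, and Cd40lg at 4.55 against 0.451, near the CD4+ Tconv levels of 7.81 and 4.23. The same cells had 0.719 times the expected Cd8a and Cd8b1 UMIs (0.626 to 0.822, 9.53 against 14.8 per 10,000), 0.540 times those of 5 CD8 effector genes (Gzmb, Prf1, Nkg7, Ccl5, Gzmk), and 3.77 times those of Gata3, the Th2 transcription factor. Their median depth was 3933.5 UMIs against 1698. The part of free RNA or of droplets with more than 1 cell in these values was not tested. With Th2 cytokine cells left out of both gates, an alternative added after these values were seen, the CD4+ Tconv over CD8+ T ratio of Cd40lg was 8.67 (7.67 to 9.82) and that of Tnfrsf4 8.70 (7.92 to 9.57).

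CD8+ T cells with a Cd40lg UMI (305 cells) and with a Tnfrsf4 UMI (418 cells) were described in the same way. Cd8a and Cd8b1 were at 0.865 (0.814 to 0.919) in the first and 0.860 (0.815 to 0.906) in the second. The CD8 effector genes were at 0.674 and 0.684, and Gata3 at 2.35 and 1.81. The T cell markers were at 0.977 and 0.957. Among CD8+ T cells with Ifng, Cd40lg was at 1.53 (1.26 to 1.87, 5 of 6 libraries), whereas Icos was at 0.800 (0.743 to 0.862) and Tnfrsf4 at 0.856 (0.748 to 0.9803), and the interval of Tnfrsf4 included 1 without library 4 (0.916) or library 5 (0.880).

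Cells with UMIs of 2 of the genes were counted for all 10 pairs and set against the number expected if the genes were independent within a library and depth quartile. Among CD4+ Tconv cells the 3 pairs of TNF receptors exceeded this number. Tnfrsf9 and Tnfrsf18 were together in 126 cells against 98.6 expected (ratio 1.28, 1.06 to 1.52), Tnfrsf4 and Tnfrsf9 in 145 against 118 (1.23, 1.04 to 1.45), and Tnfrsf4 and Tnfrsf18 in 317 against 270 (1.17, 1.05 to 1.31). The 7 pairs with Icos or Cd40lg had ratios of 1.01 to 1.11 and intervals that included 1. Pairs of other genes were not counted, so no background stands beside these ratios.

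In CD8+ T cells the pair of Tnfrsf4 and Cd40lg stood apart, with 102 cells against 50.7 expected (2.01, 1.64 to 2.44, higher in 5 of 5 libraries). Then came Tnfrsf4 with Tnfrsf18 (258 against 165 cells, 1.56, 1.38 to 1.77), Tnfrsf4 with Tnfrsf9 (1.48), Tnfrsf9 with Tnfrsf18 (1.34), Tnfrsf18 with Cd40lg (1.24), Tnfrsf4 with Icos (1.22), Icos with Cd40lg (1.18) and Tnfrsf9 with Icos (1.14). Without library 5 the pair of Tnfrsf18 and Cd40lg was at 1.09. Tnfrsf9 and Cd40lg were together in 63 cells against 65.5 expected (0.962, 0.739 to 1.23), and the interval of Tnfrsf18 with Icos (1.08) included 1 as well. Detection of any pair grows with depth. Tnfrsf4 and Tnfrsf9 in CD8+ T cells gave 3.21 with no matching, 2.33 matched by library only and 1.48 with depth quartiles. In CD4+ Tconv cells the same pair gave 1.75, 1.46 and 1.23. The depth left within a quartile was not tested.

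**Figure D4:**
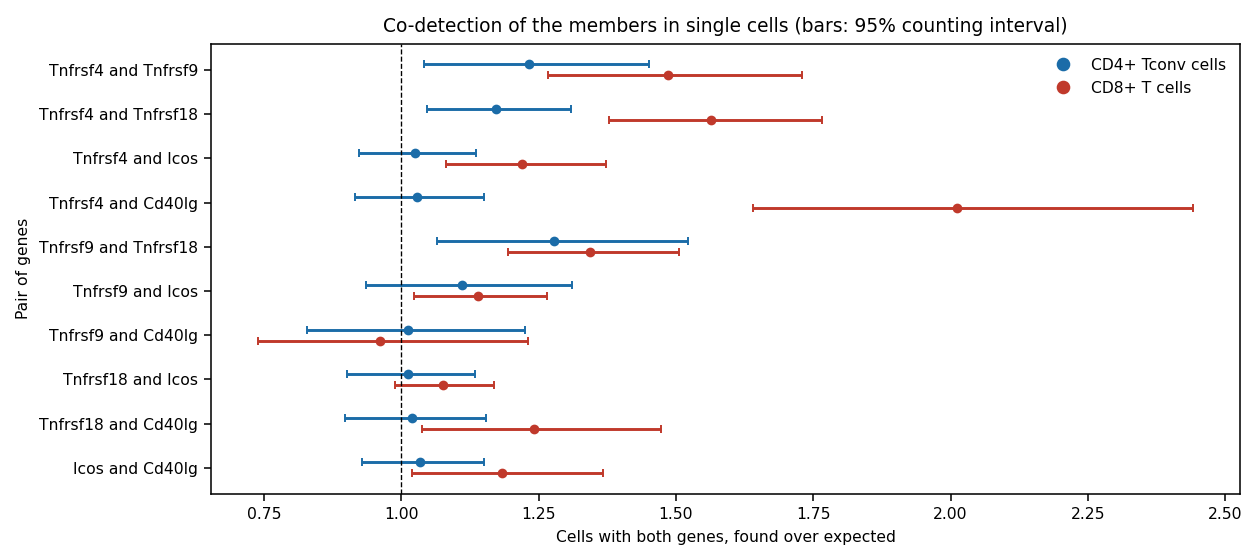
Cells with UMIs of both genes of a pair, as the ratio of the number found to the number expected within library and depth quartile (linear axis, dashed line at 1), in CD4+ Tconv cells (blue) and CD8+ T cells (red), with bars for the 95% counting interval. The pair of Tnfrsf4 and Cd40lg is farthest from 1 in CD8+ T cells (2.01) and lies at 1.03 in CD4+ Tconv cells.

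Counted per cell after thinning to 1000 UMIs, at least 3 of the 5 genes were found in 17.7% of CD4+ Tconv cells (161 of 910, 15.3% to 20.3%), 2.06% of CD8+ T cells (77 of 3735, 1.63% to 2.57%) and 22.4% of Foxp3+ cells (17 of 76, 13.6% to 33.4%). None of the 5 was found in 182, 2242 and 12 of these cells. All 5 together were found in 5 CD4+ Tconv cells and 1 CD8+ T cell, and in 0 of 76 Foxp3+ cells (exact 95% interval up to 4.74%).

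The genes most like each of the 5 were taken by Pearson r of log2 levels over 14 combinations of gate and library, among 5613 genes with at least 200 UMIs in them. These points share libraries and depth, and r is a description only. For Tnfrsf4 the closest were Areg (amphiregulin, r = 0.951), Sdf4 (0.933) and Tnfrsf18 (0.908), and for Tnfrsf18 Ppp1cc (0.949), Mif4gd (0.946) and Sdf4 (0.942). Tnfrsf9 was closest to Ly6e (0.937), Vamp8 (0.927) and Lmnb1 (0.923), and Icos to Sla (0.963), Ptp4a2 (0.963) and Ppp1cc (0.962). Cd40lg was closest to Cd4 (0.924), which set the gate, then to Ramp3 (0.912) and Nrp1 (0.871). Within the 5 genes r ran from 0.321 for Tnfrsf9 with Cd40lg to 0.928 for Tnfrsf18 with Icos.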

How the data were processed

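TCRβ+ T cells of B16-F10 tumors were profiled in 3 PBS-treated and 3 DTx-treated samples of Foxp3-EGFP-DTR mice. The authors deposited raw UMI counts, made from 5′ droplet libraries with Cell Ranger and Seurat. The methods name mm10 and the submitters' processing notes list mm9, and the table holds no coordinates, so genes were matched to GENCODE M21 (GRCm38) by symbol. The authors kept cells with 200 to 2500 genes and under 5% mitochondrial UMIs, and 0 cells of the table lay outside these limits. No filter was added here.

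The library number of a cell could not be tied to a sample, so 0 cells were assigned to PBS or DTx, no comparison of treatments was made and 0 p-values were computed. Levels carry exact Poisson, shares exact Clopper-Pearson and ratios conditional binomial 95% intervals. They cover counting error only and say nothing of the spread between mice or of further spread between cells. Ratios were matched by library and 4 quartiles of depth, and genes compared had at least 20 UMIs over both gates. Cells were thinned to 1000 UMIs for shares. Patterns used log2 of UMIs per 10,000 plus 0.1. Library ratios needed at least 10 cells of both kinds. The procedure was tested on simulated data. For the ratios these were Poisson counts, with no spread between cells beyond depth, library and gate, so the test cannot show how such spread affects the intervals. Python 3.11.15, NumPy 2.4.6, SciPy 1.17.1 and matplotlib 3.10.9 were used.

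The named genes were the 5 genes, the gating and state genes, 8 pathway lists, and the 3 genes closest in pattern to each. The genes next to them on the chromosome and single list members were named after their values were seen. The 5 genes, the lists and the comparisons were chosen with earlier results of these data known, and are no independent support for them. Levels are mRNA and not protein. Results for cells with naive marker transcripts, 1 gene of the naive list and 1 of the B cell list are not reported here.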

Additional observations from a re-analysis of the deposited data

How the results depend on the processing

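No paired analysis was possible because the library numbers of the cells could not be tied to the numbered PBS and DTx samples. In all 15 ratios between gates the direction was kept under each alternative run: 157 of 210 values lay within the counting interval of the reported ratio and 53 outside it. The number of the 5 genes with an interval above 1 for Foxp3+ over CD4+ Tconv cells was 4 as reported and 2 with no matching of library or depth, and ran from 2 to 4 when single libraries were left out (2 without library 2). The number below 1 was 1 as reported and 0 with at least 2 gating UMIs per cell, and ran from 0 to 1 with single libraries left out (0 without library 1). With every cell weighted equally the Foxp3+ over CD8+ T ratio of Tnfrsf4 was 26.6 and that of Tnfrsf9 12.3. Without a minimum of 20 UMIs, the share of genes with a ratio of at least 2 was 9.91% for CD4+ Tconv over CD8+ T and 14.0% for Foxp3+ over CD4+ Tconv cells, and that of at most 0.5 was 14.0%, 28.4% and, for Foxp3+ over CD8+ T cells, 33.9%, since genes with few UMIs then entered.

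Of 420 values for cells with a state gene, 5 changed direction against an interval on 1 side of 1, 32 others moved outside the reported interval and 383 did not. With matching by library only, Tnfrsf4 in dividing cells was at 1.01 in CD4+ Tconv and 1.09 in CD8+ T cells, and in CD8+ T cells with Ifng at 1.02. With single libraries left out, Icos in Th2 cytokine CD4+ Tconv cells ran from 0.621 to 1.07 and Tnfrsf9 in those with recent TCR signal genes from 0.998 to 1.46, each time past 1 without library 4. The causes were not tested. Leaving ribosomal protein and mitochondrial genes out of the totals put the Tnfrsf4 level in CD4+ Tconv cells at 11.6 per 10,000. Leaving out barcodes found in more than 1 library, an alternative chosen after seeing the data, kept each ratio between gates within its reported interval. Depth limits detection: thinned to 500 UMIs, Tnfrsf4 was found in 23.8% of CD4+ Tconv cells against 36.7% at 1000.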

Other observations

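Cells without a UMI of Cd4, a Cd8 gene or Foxp3 held 49.8% of all Tnfrsf4 UMIs and 61.3% of those of Cd40lg, but 28.9% of those of Tnfrsf9, beside 38.3% of the UMIs of all genes. Their levels were 4.16 per 10,000 for Tnfrsf4, 0.854 for Tnfrsf9, 2.50 for Tnfrsf18, 4.77 for Icos and 3.57 for Cd40lg, so that Tnfrsf4 and Cd40lg lay between the CD8+ T and CD4+ Tconv levels and Tnfrsf9 below both. The 163 cells with UMIs of both Cd4 and a Cd8 gene had 3.55 for Tnfrsf4, 1.46 for Tnfrsf9, 3.22 for Tnfrsf18, 5.35 for Icos and 2.74 for Cd40lg, each between the levels of the gates that they combine.

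Among the neighbours of these genes, C1qtnf12, which lies 47213 bases from Tnfrsf4, was 5.33 times as high in CD4+ Tconv as in CD8+ T cells (3.33 to 8.69, higher in 4 of 6 libraries), with 170 UMIs in all cells. Gm14718, an antisense gene 7764 bases from Cd40lg, had 62 UMIs in all cells, 21 of them in CD4+ Tconv cells where 0.531 were expected from CD8+ T cells (ratio 39.6, 11.9 to 202). Ctla4, which lies 62094 bases from Icos, was at 1.32 (1.20 to 1.44) beside 1.70 for Icos.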
